A study of Mus musculus with 16 samples.

Results

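Cholesterol and fatty acid synthesis genes were followed through 8 RNA sequencing libraries of mouse lung fibroblasts. The 31 genes were chosen by name for what their products do, among 54331 genes listed. No measured value entered the rule, but earlier results of these data were known when the genes were chosen. All 31 were found and all 31 lay among the 15527 genes with a mean of at least 10 normalized counts, which were tested. They comprise 17 enzymes of sterol synthesis and 3 genes of acetoacetyl-CoA supply, a side branch and sterol transport. A further 5 genes sense sterols or carry the signal, and 4 belong to fatty acid synthesis. The cholesterol exporters Abca1 and Abcg1 are set against the others. All cells came from C57BL/6 mice and were infected with an adenovirus, and RNA was taken 72 h later. KO cells, labelled ST2 KO, lack the receptor for the cytokine IL-33 by their label, and WT cells are labelled wild-type. Each genotype had 1 library infected with a virus for full-length IL-33 (FL), 1 with a virus for mature IL-33 (M) and 2 with the non-coding NULL virus. The NULL libraries thus carry a virus too, and no uninfected cells were analysed here. The labels do not say whether the libraries came from separate cultures or animals, so the p-values speak for the variation among these libraries alone, and that may be technical.

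Animal cells make cholesterol from acetyl-CoA through mevalonate, isoprenoids, squalene and lanosterol. The transcription factors SREBP1 and SREBP2, encoded by Srebf1 and Srebf2, switch on these enzymes when sterols in the endoplasmic reticulum are low. The escort protein SCAP carries the SREBPs to the Golgi for cleavage, and INSIG1 and INSIG2 hold SCAP back when sterols are plentiful. SREBP1 acts more on fatty acid genes and SREBP2 more on cholesterol genes. The exporters ABCA1 and ABCG1 pass cholesterol to lipoproteins and are targets of the liver X receptors (LXR), which oxysterols activate. Lung fibroblasts next to the alveoli include lipid-storing cells.

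Promoter sequences are shown because Hmgcs1, Mvk, Hsd17b7 and Insig1 share a regulator, the SREBPs, by background knowledge. The windows show which of its best-known letters stand near their starts. The exporter Abca1, an LXR target by the same background, is shown beside them for contrast. Each window runs from 250 bases before to 50 bases after a RefSeq transcript start on GRCm38.p6, 300 bases in all, and 24 of the 31 genes had at least 1 window. Hmgcs1 lies at chr13:119690101-119690400 on the plus strand, Mvk at chr5:114444019-114444318 on the plus strand and Insig1 at chr5:28071162-28071461 on the plus strand. Hsd17b7 lies at chr1:169969156-169969455 on the minus strand and Abca1 at chr4:53159846-53160145 on the minus strand. Capitals mark matches, on either strand, to TCACNCCAC (an SREBP element), CCAAT or its complement ATTGG (the box of NF-Y, a factor that works with SREBPs) and CACGTG (an E-box, which SREBPs can also bind).
Hmgcs1: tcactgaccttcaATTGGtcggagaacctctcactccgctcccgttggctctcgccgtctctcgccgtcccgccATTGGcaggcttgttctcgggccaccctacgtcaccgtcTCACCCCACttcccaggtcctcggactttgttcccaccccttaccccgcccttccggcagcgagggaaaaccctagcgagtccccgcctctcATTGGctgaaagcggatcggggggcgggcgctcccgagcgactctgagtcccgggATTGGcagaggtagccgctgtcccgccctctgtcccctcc
Mvk: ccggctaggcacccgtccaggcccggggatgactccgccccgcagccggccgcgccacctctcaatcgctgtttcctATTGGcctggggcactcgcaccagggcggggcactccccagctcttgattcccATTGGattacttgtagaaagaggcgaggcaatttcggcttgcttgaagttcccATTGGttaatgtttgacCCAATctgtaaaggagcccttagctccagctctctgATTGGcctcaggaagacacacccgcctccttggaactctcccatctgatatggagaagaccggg
Hsd17b7: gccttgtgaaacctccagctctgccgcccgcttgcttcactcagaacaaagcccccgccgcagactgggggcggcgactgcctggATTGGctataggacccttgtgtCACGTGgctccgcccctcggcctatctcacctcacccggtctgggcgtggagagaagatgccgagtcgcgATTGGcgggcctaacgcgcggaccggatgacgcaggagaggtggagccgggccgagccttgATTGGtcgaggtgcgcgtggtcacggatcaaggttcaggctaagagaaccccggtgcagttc
Insig1: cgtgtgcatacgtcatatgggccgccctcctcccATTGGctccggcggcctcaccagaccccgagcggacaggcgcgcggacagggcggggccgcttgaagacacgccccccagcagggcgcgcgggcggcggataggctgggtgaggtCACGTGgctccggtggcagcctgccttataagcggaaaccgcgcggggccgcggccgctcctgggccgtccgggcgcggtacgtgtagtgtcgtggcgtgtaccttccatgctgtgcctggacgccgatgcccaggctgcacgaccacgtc
Abca1: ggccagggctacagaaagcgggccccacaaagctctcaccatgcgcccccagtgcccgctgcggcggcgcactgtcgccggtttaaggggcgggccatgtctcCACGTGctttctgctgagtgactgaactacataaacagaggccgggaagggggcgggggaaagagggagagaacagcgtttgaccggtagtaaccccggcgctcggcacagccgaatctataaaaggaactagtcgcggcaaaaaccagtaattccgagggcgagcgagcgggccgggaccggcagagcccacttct
The SREBP element matched in 1 of the 24 genes, Hmgcs1, against 1.44% of the 27025 genes with a window. Only this exact form was searched, so other forms of the element would be missed. Sqle, Fdps, Fdft1, Stard4, Scd1 and Scd2 had no window. The search therefore cannot tell which of the genes lack an SREBP element. The NF-Y box was present in 20 of the 24 genes, or 83.3%, against 41.1% of all genes. The E-box was present in 6 of the 24 genes, or 25%, against 8.09% of all genes. An exact match to a 16-letter form of the direct repeat that LXR binds was present in 0 of the 24 genes. It was present in 4 of all 27025 genes (0.0148%), so its absence from 24 genes says little. Inexact copies of the repeat were not searched, and Abcg1 had no window. This search therefore cannot tell whether the exporters hold an LXR element. A match is a description of these letters in these windows and not a mapped binding site.

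**Figure D1:**
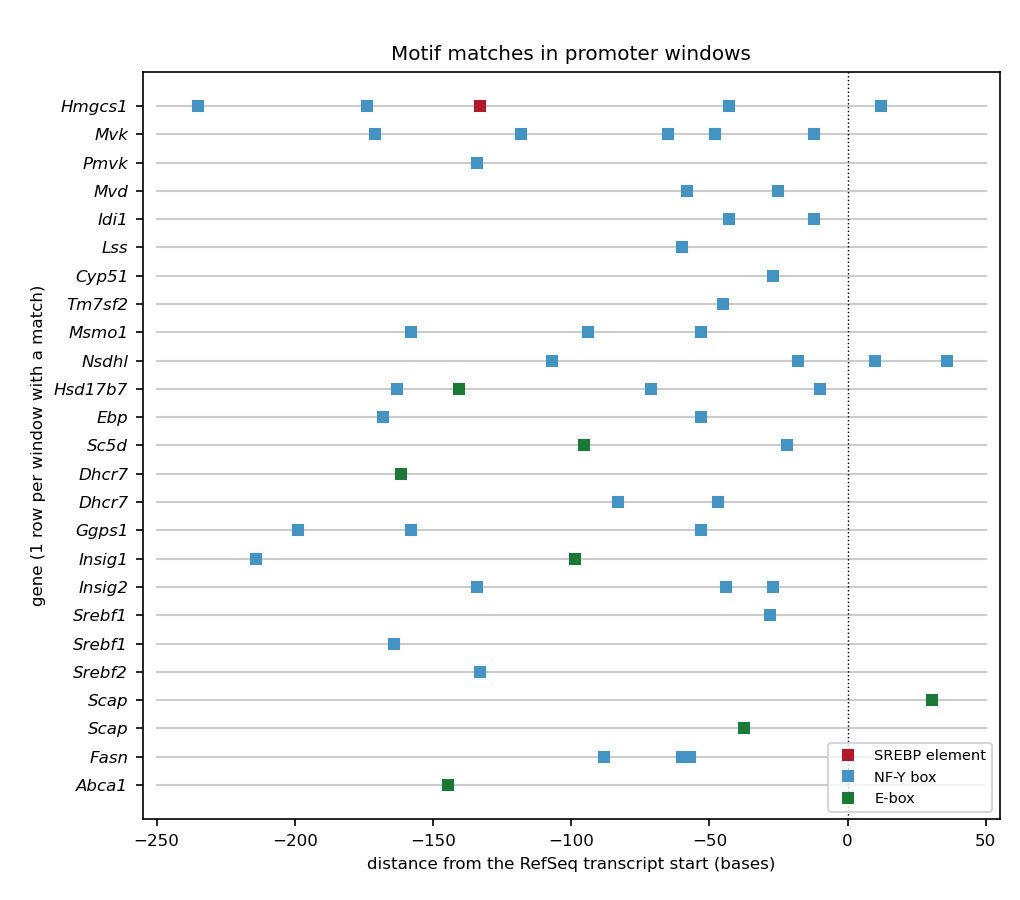
Matches to 3 motifs in the promoter windows that hold one, with the distance in bases from the RefSeq transcript start on the horizontal axis and 1 row per window. NF-Y boxes (blue) occur in 20 of 24 genes, E-boxes (green) in 6 and the SREBP element (red) in Hmgcs1.

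Normalized totals were 23912900 to 29174500 per library, with 22193 to 23645 genes above 0. Il33, carried by the vectors, stood at 1080000 normalized counts in KO FL, 81110 in KO M, 214 and 216 in the KO NULL libraries, 593800 in WT FL, 249000 in WT M and 193 and 201 in the WT NULL libraries. Insert levels were thus not matched between FL and M, nor between KO and WT. Il1rl1, the gene of ST2, was counted over the whole gene at 69.2 to 85.2 in KO and 18.3 to 106 in WT, which overlap, so these values do not check the genotype labels. KO and WT below mean the libraries so labelled. The WT M library stood apart, with 7650 genes past the threshold against WT NULL. The sum of 15 fibroblast markers was 771700 there against 1371000 to 1399000 in WT NULL, with 13 of 15 lower, and the sum of 15 macrophage and monocyte markers was 48480 against 20630 to 21550, with 13 of 14 tested higher. The sum of 8 mesothelial markers was 5036 against 1416 to 1442, all 8 higher, and that of 9 smooth muscle and pericyte markers was 258100 against 436100 to 439600, with 8 lower and 1 higher. The sum of 8 markers of alveolar type 2 cells, which make surfactant lipid, was 2138 against 4113 to 4575, with 5 of 6 tested lower, among them Sftpc at 147 against 969 and 765. The sum of 8 endothelial markers was 413 against 573 to 574, with 4 of 7 tested lower and 1 higher. Lymphocyte markers were near 0 in both, at 36.1 against 16.1 to 27.1 over 8 genes, with Cd3e and Cd3d at 0. The part of these shifts in the WT M results below was not tested, and in bulk RNA fewer cells of a type and less RNA per cell cannot be told apart.

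With the M virus, WT cells had lower levels of most sterol synthesis genes and higher levels of both exporters than with the NULL virus. Of the 31 genes, 21 fell (67.7%) and 3 rose, where 26.8% of all tested genes fell and 22.5% rose (limma on log2 values, adjusted p under 0.05). The WT M library is a lone library, and the test assumes that it varies like the NULL pairs. The median log2 change was -0.54 over the 31 genes and -0.02 over all tested genes. Among the 17 sterol synthesis enzymes, 13 fell, 1 rose and 3 did not pass, with a median log2 change of -0.74. WT M was the lowest of the 8 libraries for 21 of the 31 genes, and for 30.4% of all tested genes.

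The early steps build mevalonate and activate it. Hmgcs1, the HMG-CoA synthase, had 1494 normalized counts in WT M, against 2455 and 2537 in WT NULL. Mvk, mevalonate kinase, had 348 in WT M, against 679 and 671 in WT NULL. Idi1, which isomerizes isopentenyl diphosphate, had 599 in WT M, against 1095 and 1115 in WT NULL. In all of them WT M lay far below both NULL libraries, which lay close together. Hmgcs1 fell by 0.74 on the log2 scale (SE 0.061, adjusted p = 0.000107), Mvk fell by 0.96 (SE 0.095, adjusted p = 0.000263) and Idi1 fell by 0.88 (SE 0.095, adjusted p = 0.000371). Pmvk, phosphomevalonate kinase, also fell, with a log2 change of -1.18, and so did Mvd, the mevalonate diphosphate decarboxylase, with -0.62. Fdps, which makes farnesyl diphosphate, and Fdft1, the squalene synthase, had log2 changes of -0.75 and -0.90.

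Sqle had the lowest log2 change of the 31 genes. The gene lies at chr15:59315077-59331192 on the plus strand (GRCm38) and encodes squalene epoxidase, which adds the first oxygen to squalene. Sqle had 667 normalized counts in WT M, against 2405 and 2462 in WT NULL, a 3.64-fold lower level (log2 -1.87, SE 0.066, adjusted p = 2.46e-06). Lss, the lanosterol synthase that closes the sterol rings, had 316 in WT M, against 729 and 740 in WT NULL (log2 -1.22, SE 0.15, adjusted p = 0.000611). Cyp51, the lanosterol demethylase, had 1186 in WT M, against 1758 and 1794 in WT NULL (log2 -0.58, SE 0.062, adjusted p = 0.000363). These are consecutive steps from squalene to the first sterols, and each fell. Of the later enzymes, Hsd17b7, a ketoreductase of sterol demethylation, fell with a log2 change of -1.11, Msmo1, the sterol methyl oxidase, with -0.52 and Nsdhl, the sterol dehydrogenase, with -0.48.

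Of the other enzymes, 1 rose and 3 did not pass. Sc5d, the sterol desaturase, rose, with 1888 normalized counts in WT M, against 1594 and 1563 in WT NULL (log2 0.26, SE 0.070, adjusted p = 0.0204). Dhcr7, the dehydrocholesterol reductase that makes cholesterol itself, had 455 in WT M, against 344 and 447 in WT NULL, and did not pass (log2 0.21, SE 0.17, adjusted p = 0.325). Tm7sf2, a sterol reductase, and Ebp, the sterol isomerase, had log2 changes of -0.54 and -0.31 and did not pass, though both were negative, Tm7sf2 with an SE of 0.27. Tm7sf2 shares exon bases with Vps51 on the same strand, and Fdft1, Cyp51, Ggps1, Srebf1 and Scap share some with a tested gene on the opposite strand. The sources used here do not give whether the reads kept their strand, so those values are less certain.

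Outside the 17 sterol enzymes, among the genes of acetoacetyl-CoA supply, a side branch and sterol transport, Stard4, a sterol carrier, fell (log2 -0.72, SE 0.14). Acat2, a cytosolic thiolase that supplies acetoacetyl-CoA, had 475 normalized counts in WT M, against 536 and 545 in WT NULL, and did not pass (adjusted p = 0.148). Ggps1, which makes geranylgeranyl diphosphate, did not pass either, with a log2 change of -0.28.

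The sensing genes fell too, with 1 exception. Srebf1 had 1275 normalized counts in WT M, against 1963 and 1977 in WT NULL (log2 -0.63, SE 0.058, adjusted p = 0.000188). Srebf2 had 2176 in WT M, against 3302 and 3221 in WT NULL (log2 -0.58, SE 0.066, adjusted p = 0.000463). Insig1, itself a known SREBP target, had 745 in WT M, against 1002 and 1106 in WT NULL (log2 -0.50, SE 0.085, adjusted p = 0.00302). Scap fell less, with a log2 change of -0.28. Insig2, whose transcription does not depend on SREBP in the same way, had 995 in WT M, inside the range of 972 to 1061 in WT NULL, and did not pass (log2 -0.03, SE 0.10, adjusted p = 0.830).

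Among the fatty acid genes the desaturases stood out. Scd2, a stearoyl-CoA desaturase that puts the double bond into saturated fatty acids, had 3223 normalized counts in WT M, against 8124 and 8377 in WT NULL, a 2.56-fold lower level (log2 -1.36, SE 0.050, adjusted p = 2.96e-06). Its neighbouring paralog Scd1 had 2285 in WT M, against 3468 and 3030 in WT NULL (log2 -0.50, SE 0.086, adjusted p = 0.00303). Scd2 lies at chr19:44293674-44306864 and Scd1 at chr19:44394455-44407879 (GRCm38), and reads of their shared sequence may be split between them. Fasn, the fatty acid synthase, had 5262 in WT M, against 5956 and 6088 in WT NULL (log2 -0.19, SE 0.060, adjusted p = 0.0335), a direction that turned to 0.03 after quantile normalization. Acaca, the acetyl-CoA carboxylase, did not pass (log2 -0.22, adjusted p = 0.0977).

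The exporters went the other way. Abca1 had 1663 normalized counts in WT M, against 1236 and 1210 in WT NULL (log2 0.44, SE 0.070, adjusted p = 0.00208). Abcg1 had 251 in WT M, against 184 and 179 in WT NULL (log2 0.47, SE 0.14, adjusted p = 0.0280). WT M was the highest of the 8 libraries for both exporters.

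**Figure D2:**
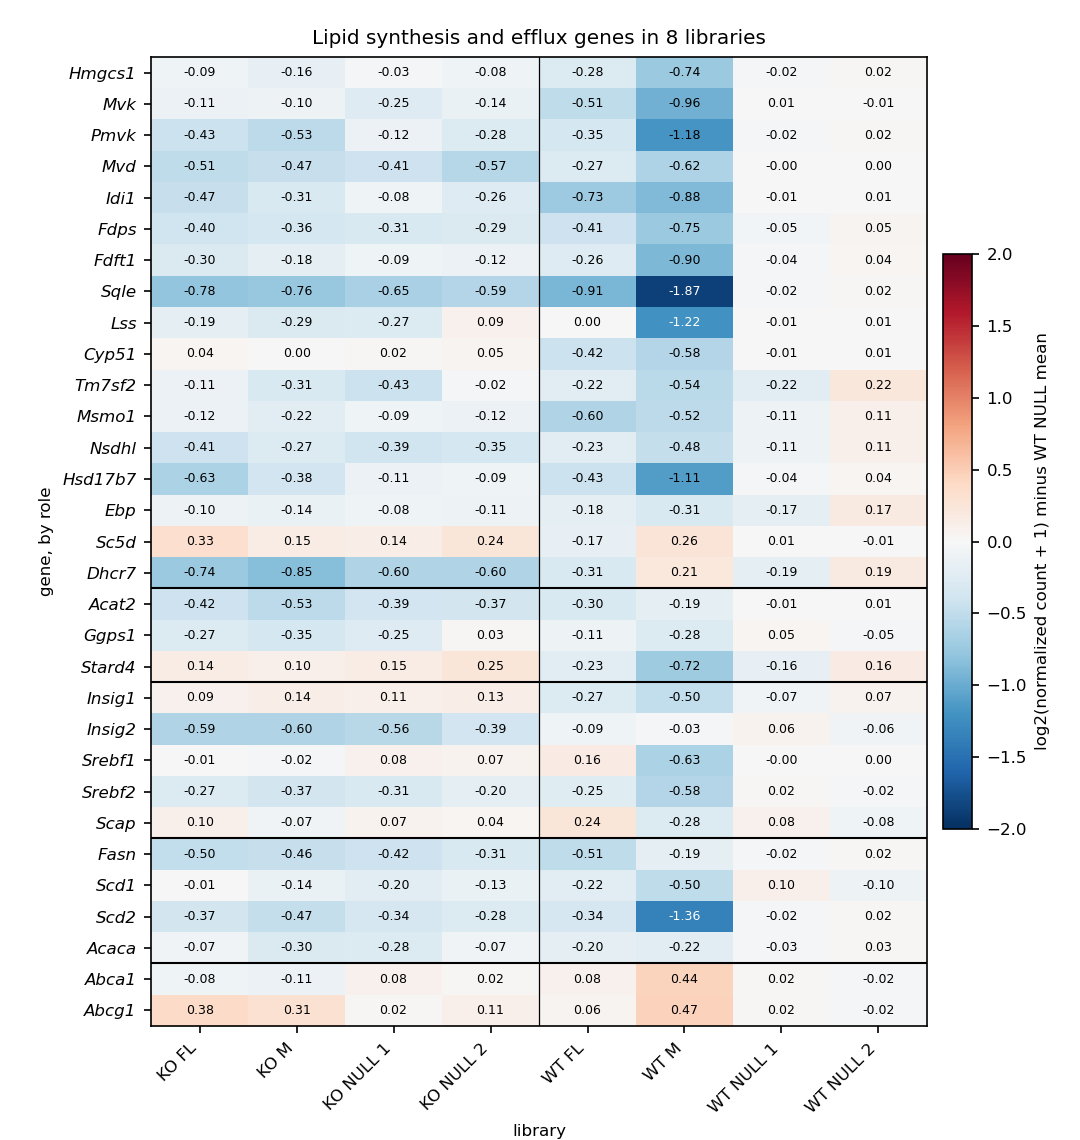
The log2(normalized count + 1) of each of the 31 genes (rows, by role) minus the mean of the 2 WT NULL libraries, in each of the 8 libraries (columns, KO left of WT). Blue is lower and red higher: Sqle reaches -1.87 in WT M and Scd2 -1.36, while Abca1 and Abcg1 reach 0.44 and 0.47.

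With the FL virus, sterol enzymes and 2 fatty acid genes were lower in WT cells than with the NULL virus. Of the 31 genes, 10 fell and 0 rose against WT NULL, where 3.9% of all tested genes fell and 3.5% rose, and 2 of the 31 were higher at an unadjusted p under 0.05, where 11% of all tested genes were. The median log2 change was -0.26 over the 31 genes and -0.02 over all tested genes. The 10 were Hmgcs1, Mvk, Idi1, Fdps, Sqle, Cyp51, Msmo1 and Hsd17b7 of the sterol enzymes and Fasn and Scd2 of the fatty acid genes. With KO NULL replicate 1 or KO NULL replicate 2 left out, 3 passed in each case (Sqle, Fasn and Idi1). Marker sums in WT FL were 1482000 for fibroblasts, 21380 for macrophages and monocytes and 1213 for mesothelium, with smooth muscle and pericyte markers at 321500 and endothelial markers at 515. Alveolar type 2 markers summed to 3063 in WT FL, against 4113 to 4575 in WT NULL, with Sftpc at 233 against 969 and 765 and Sftpb at 49.6 against 177 and 160, and 0 of 6 tested passed. The part of these shifts in the FL result was not tested.

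Sqle had 1293 normalized counts in WT FL, against 2405 and 2462 in WT NULL (log2 -0.91, SE 0.066, adjusted p = 0.000886). Idi1 had 666 in WT FL, against 1095 and 1115 in WT NULL (log2 -0.73, SE 0.095, adjusted p = 0.00699). Fasn had 4214 in WT FL, against 5956 and 6088 in WT NULL (log2 -0.51, SE 0.060, adjusted p = 0.00478). Each WT FL value lay below both NULL libraries, and Fasn was lower in WT FL than in WT M. Cyp51 had 1325 in WT FL, against 1758 and 1794 in WT NULL (log2 -0.42, SE 0.062, adjusted p = 0.0118). Scd2 had 6516 in WT FL, against 8124 and 8377 in WT NULL (log2 -0.34, SE 0.050, adjusted p = 0.0117). Hmgcs1 had 2057 in WT FL, against 2455 and 2537 in WT NULL (log2 -0.28, SE 0.061, adjusted p = 0.0429).

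Several genes that fell with M did not pass with FL. Lss had 735 normalized counts in WT FL, between 729 and 740 in WT NULL. Srebf1 had 2202 in WT FL, above 1963 and 1977 in WT NULL, and did not pass (log2 0.16, SE 0.058, adjusted p = 0.156). Srebf2 had 2747 in WT FL, against 3302 and 3221 in WT NULL, and Insig1 had 872, against 1002 and 1106, with adjusted p-values of 0.0748 and 0.112. Scd1 had 2775 in WT FL, against 3468 and 3030 in WT NULL (adjusted p = 0.176). The exporters did not pass, with 1294 for Abca1 in WT FL, against 1236 and 1210 in WT NULL, and 189 for Abcg1, against 184 and 179.

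M was also compared with FL directly in WT cells, 1 library each. Neither has a replicate, so the SEs and p-values come from the NULL pairs only and assume that both lone libraries vary like them, and they compare these 2 libraries. In that comparison 12 of the 31 genes were lower with M and 3 were higher, where 20.1% of all tested genes were lower and 15.9% higher. The lower ones included Lss (log2 -1.22, SE 0.17, adjusted p = 0.00199), Scd2 (log2 -1.02, SE 0.058, adjusted p = 3.92e-05), Sqle (log2 -0.95, SE 0.076, adjusted p = 0.000174) and Srebf1 (log2 -0.79, SE 0.067, adjusted p = 0.000230). The higher ones were Sc5d (log2 0.42), Abca1 (log2 0.36) and Fasn (log2 0.32). Idi1, Cyp51 and Msmo1 did not pass, with log2 differences of -0.15, -0.16 and 0.08. Marker sums also differed, at 771700 in WT M against 1482000 in WT FL for fibroblasts and 48480 against 21380 for macrophages and monocytes. The inserts differed in amount as well as in form, as the Il33 values above show, and the amount and the form cannot be told apart here.

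With FL and M taken as the pair of WT IL-33 libraries, 0 of the 31 genes passed against WT NULL, where 0.264% of all tested genes did. This test counts the difference between the isoforms as spread. At an unadjusted p under 0.05, 18 of the 31 were lower and 0 higher, where 11.6% of all tested genes were lower and 10.5% higher at that threshold. By adjusted p, and with the variance estimated in the NULL pairs only 21 were lower and 1 higher, where 21% and 16.5% of all tested genes were. Without WT FL 24 of the 31 passed, and without WT M 9 did. The smallest adjusted p was that of Idi1 (log2 -0.81, SE 0.11, adjusted p = 0.0574). In 22 of the 31 genes both WT IL-33 libraries lay below both WT NULL libraries, and in 2, Abca1 and Abcg1, they lay above, where this held for 27.9% and 24% of all tested genes. The 22 included 13 of the 17 sterol enzymes, all 4 fatty acid genes, Srebf2 and Insig1.

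In KO cells none of the 31 genes passed with either virus. With FL, 0 passed against KO NULL, where 0.238% of all tested genes did, and 4 were lower and 0 higher at an unadjusted p under 0.05, where 7.19% and 6.23% of all tested genes were. With M, 0 passed, where 0.0322% of all tested genes did, and 3 were lower and 0 higher at an unadjusted p under 0.05, where 5.08% and 3.09% of all tested genes were. The median log2 change was -0.04 with FL and -0.11 with M over the 31 genes. The KO IL-33 libraries taken as a pair gave 0 passing and 0 at an unadjusted p under 0.05, where 0.0193% and 2.14% of all tested genes did, and 0 passed with the variance estimated in the NULL pairs only, where 0.174% did. KO marker sums with IL-33 were 1037000 to 1045000 for fibroblasts, against 1095000 to 1105000 with NULL, and 438 to 518 for mesothelium, against 639 to 648. The summed alveolar type 2 markers were 2492 to 2657 in KO with IL-33, against 2445 to 2504 in KO NULL, but 3 of the 6 tested were higher with either virus. Of these, Sftpc had 162 and 156 normalized counts in KO FL and KO M, against 1.37 and 0 in KO NULL, Sftpb had 55.8 and 57.3, against 0 and 0.639, and Slc34a2 had 24.4 and 27.6, against 0 in both. With the IL-33 libraries as a pair these were the same 3 genes that passed among all tested genes, and their part in the values below was not tested.

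The KO libraries lay close together for some sterol enzymes and further apart for others, such as Hsd17b7 and Idi1. Of the 17 sterol enzymes, 9 were lower in both KO IL-33 libraries than in both KO NULL libraries, and 1, Mvk, was higher. This held for 22% and 20.6% of all tested genes. Sqle had 1413 and 1438 normalized counts in KO FL and KO M, against 1554 and 1617 in KO NULL. Hmgcs1 had 2343 and 2230 in KO FL and KO M, against 2453 and 2356 in KO NULL. Cyp51 had 1826 and 1780 in KO FL and KO M, against 1798 and 1841 in KO NULL. Only small gaps separated the pairs for Sqle and Hmgcs1, and the pairs overlapped for Cyp51. Idi1 had 801 and 891 in KO FL and KO M, against 1044 and 924 in KO NULL. Lss had 644 and 599 in KO FL and KO M, against 609 and 782 in KO NULL. Hsd17b7 had the smallest p in KO FL, at 600 in KO FL and 712 in KO M, against 855 and 872 in KO NULL (FL log2 -0.53, SE 0.085, adjusted p = 0.107).

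For the sensing and fatty acid genes given here the KO libraries lay fairly close together. Insig1 had 1122 and 1158 normalized counts in KO FL and KO M, against 1132 and 1151 in KO NULL. Srebf1 had 1963 and 1948 in KO FL and KO M, against 2086 and 2070 in KO NULL. Srebf2 had 2711 and 2515 in KO FL and KO M, against 2631 and 2847 in KO NULL. The Insig1 values differed by less than the gap between the WT NULL libraries. Scd2 had 6371 and 5947 in KO FL and KO M, against 6540 and 6815 in KO NULL. Scd1 had 3208 and 2949 in KO FL and KO M, against 2813 and 2954 in KO NULL. Fasn had 4259 and 4389 in KO FL and KO M, against 4498 and 4864 in KO NULL. None of these passed the test. Abca1 had 1158 and 1132 in KO FL and KO M, against 1295 and 1240 in KO NULL, and was lower in both. Abcg1 had 236 and 225 in KO FL and KO M, against 184 and 195 in KO NULL, and was higher in both. The KO IL-33 and KO NULL libraries did not overlap for 17 genes that were lower and 2 that were higher, where this held for 22% and 20.6% of all tested genes.

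**Figure D3:**
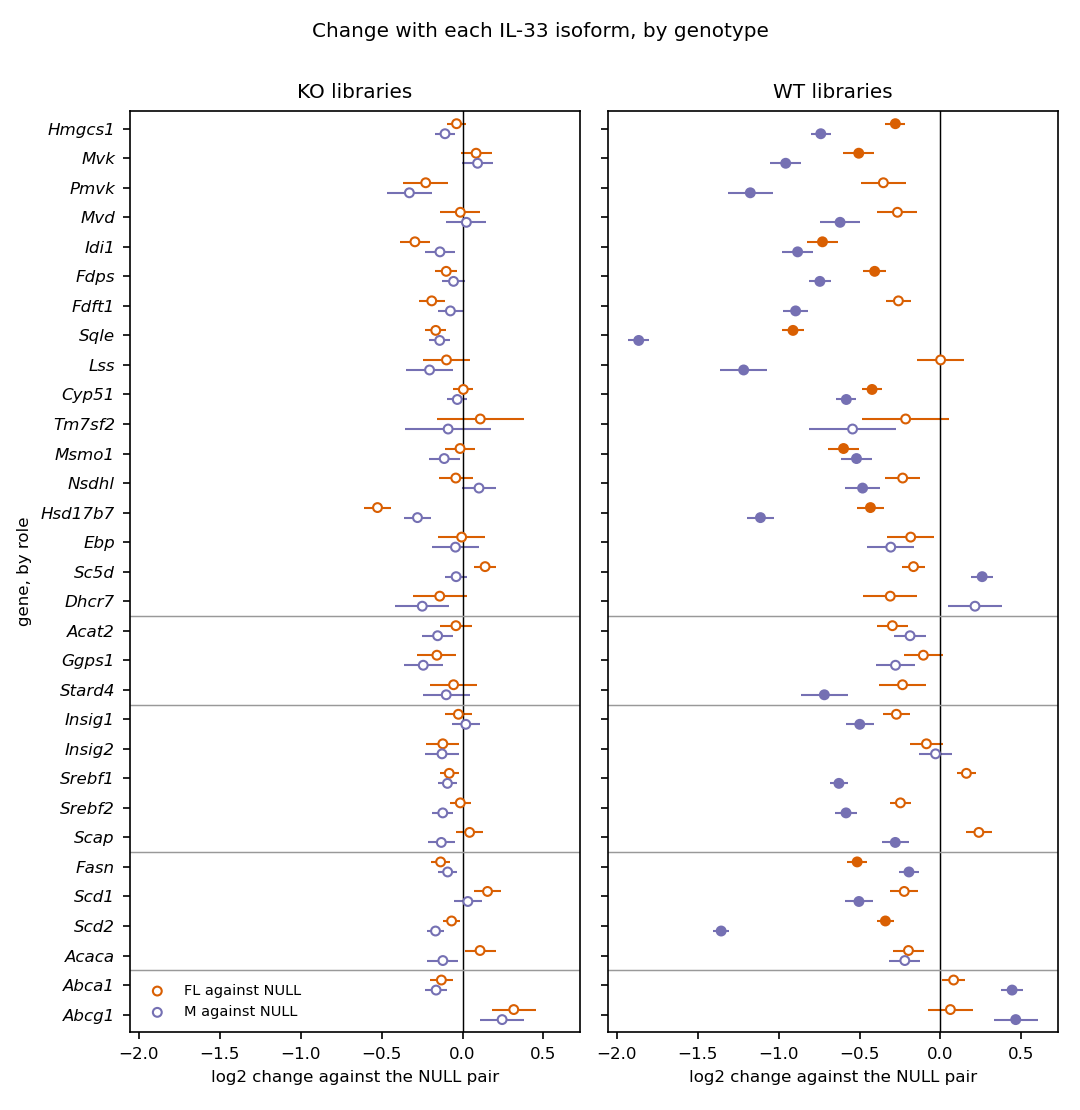
The log2 change of each of the 31 genes against the NULL pair of the same genotype, for FL (orange) and M (purple), in KO (left) and WT (right). Bars are standard errors from the limma fit, and filled points passed at an adjusted p under 0.05: 0 in KO for either virus, 10 in WT with FL and 24 in WT with M.

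The difference of the M effects between genotypes, KO minus WT, passed for 18 of the 31 genes. It was positive for 17, where 18.8% of all tested genes were positive, and negative for 1, where 14.6% were. This comparison and its FL counterpart were added after the data had been seen, and the genes' own changes with M were seen first. Il33 stood at 81110 normalized counts in KO M against 249000 in WT M, and at 1080000 in KO FL against 593800 in WT FL. Genotype and insert level therefore cannot be told apart in these comparisons. The difference was 1.72 for Sqle (SE 0.093, adjusted p = 3.71e-05), 1.19 for Scd2 (SE 0.071, adjusted p = 5.63e-05) and 1.05 for Mvk (SE 0.14, adjusted p = 0.00157) on the log2 scale. It was -0.61 for Abca1. With FL, 1 gene passed, Sqle (0.75, SE 0.093, adjusted p = 0.0116), where 2.44% of all tested genes did, and 0 passed with either KO NULL library left out. With FL and M pooled, 0 of the 31 passed, where 0.129% of all tested genes did. In that pooled fit 8 were positive and 0 negative at an unadjusted p under 0.05, where 4.07% of all tested genes were positive and 4.93% negative. Without WT FL 20 passed, and without WT M 4 did. By adjusted p, and with the variance estimated in the NULL pairs only 13 were positive and 1 negative, where 12% and 8.49% of all tested genes were. These differences use the same NULL libraries as the comparisons within each genotype, so they are the same values read another way.

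The genotypes were then compared directly. Averaged over NULL and IL-33, 2 of the 31 genes were higher in KO and 3 lower, that is 6.45% and 9.68%, where 6.86% of all tested genes were higher and 5.08% lower. Insig1 had 1122 to 1158 normalized counts over the 4 KO libraries, against 745 to 1106 over the 4 WT libraries (log2 0.31, SE 0.074, adjusted p = 0.0412). Insig2 had 670 to 775 in KO, against 956 to 1061 in WT (log2 -0.51, SE 0.069, adjusted p = 0.00627). The ranges of the 2 INSIG genes did not overlap between genotypes, and they differed in opposite directions. For Insig1 the gap was narrow, 1122 in KO against 1106 in WT, and with the NULL virus it did not pass (log2 0.12, SE 0.10). Dhcr7 had 234 and 217 in KO FL and KO M and 259 and 258 in KO NULL, against 316 and 455 in WT FL and WT M and 344 and 447 in WT NULL (log2 -0.67, SE 0.15, adjusted p = 0.0309). Acat2 had 405 and 374 in KO FL and KO M and 413 and 419 in KO NULL, against 440 and 475 in WT FL and WT M and 536 and 545 in WT NULL (log2 -0.30, SE 0.072, adjusted p = 0.0405). Both genes were lower in every KO library than in any WT library. Cyp51 had 1780 to 1841 in KO, against 1186 to 1794 in WT, so its ranges overlapped (log2 0.28, SE 0.058, adjusted p = 0.0274). Ranges were apart for 1 gene higher in KO (Insig1) and 3 lower (Dhcr7, Acat2 and Insig2), where this held for 11.5% and 9% of all tested genes. Insig2 alone passed when any KO library or either WT NULL library was left out, while 16 of the 31 passed without WT FL and 14 without WT M.

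With the NULL virus, 1 of the 31 genes passed, where 4.28% of all tested genes did. It was Insig2, with 691 and 775 normalized counts in KO NULL, against 1061 and 972 in WT NULL (log2 -0.47, SE 0.097, adjusted p = 0.0480). It no longer passed when any KO library or either WT NULL library was left out. Sqle had 1554 and 1617 in KO NULL, against 2405 and 2462 in WT NULL, ranges that lay apart, and did not pass (log2 -0.62, SE 0.27, adjusted p = 0.249). Scd2 had 6540 and 6815 in KO NULL, against 8124 and 8377 in WT NULL, and Fasn had 4498 and 4864, against 5956 and 6088. With the variance estimated in the NULL pairs only, 10 of the 31 were lower in KO and 1, Sc5d, higher, where 16.6% of all tested genes were lower and 16.2% higher. The 10 were Insig2, Mvd, Sqle, Srebf2, Acat2, Fasn, Scd2, Nsdhl, Dhcr7 and Fdps, and 10 also passed without WT FL or without WT M. Alveolar type 2 markers summed to 2445 to 2504 over 8 genes in KO NULL, against 4113 to 4575 in WT NULL. Most of each sum was Abca3, at 2461 and 2392 in KO NULL against 3114 and 2986 in WT NULL. Other markers differed far more. Sftpc had 1.37 and 0 in KO NULL, against 969 and 765 in WT NULL, and Sftpb had 0 and 0.639, against 177 and 160. Sftpd, Lamp3 and Slc34a2 were at 0 in KO NULL. The part of these markers in the differences was not tested.

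With IL-33, 3 of the 31 genes differed between genotypes, where 4.35% of all tested genes did. Il33 levels differed between KO and WT as well, and genotype and insert level cannot be told apart in this comparison. Cyp51 had 1826 and 1780 normalized counts in KO FL and KO M, against 1325 and 1186 in WT FL and WT M (log2 0.52, SE 0.082, adjusted p = 0.0220). Insig1 had 1122 and 1158 in KO, against 872 and 745 in WT (log2 0.50, SE 0.10, adjusted p = 0.0495). Insig2 had 672 and 670 in KO, against 956 and 995 in WT (log2 -0.54, SE 0.097, adjusted p = 0.0322). None passed when any KO library or either WT NULL library was left out, 22 passed without WT FL and 7 without WT M.

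**Figure D4:**
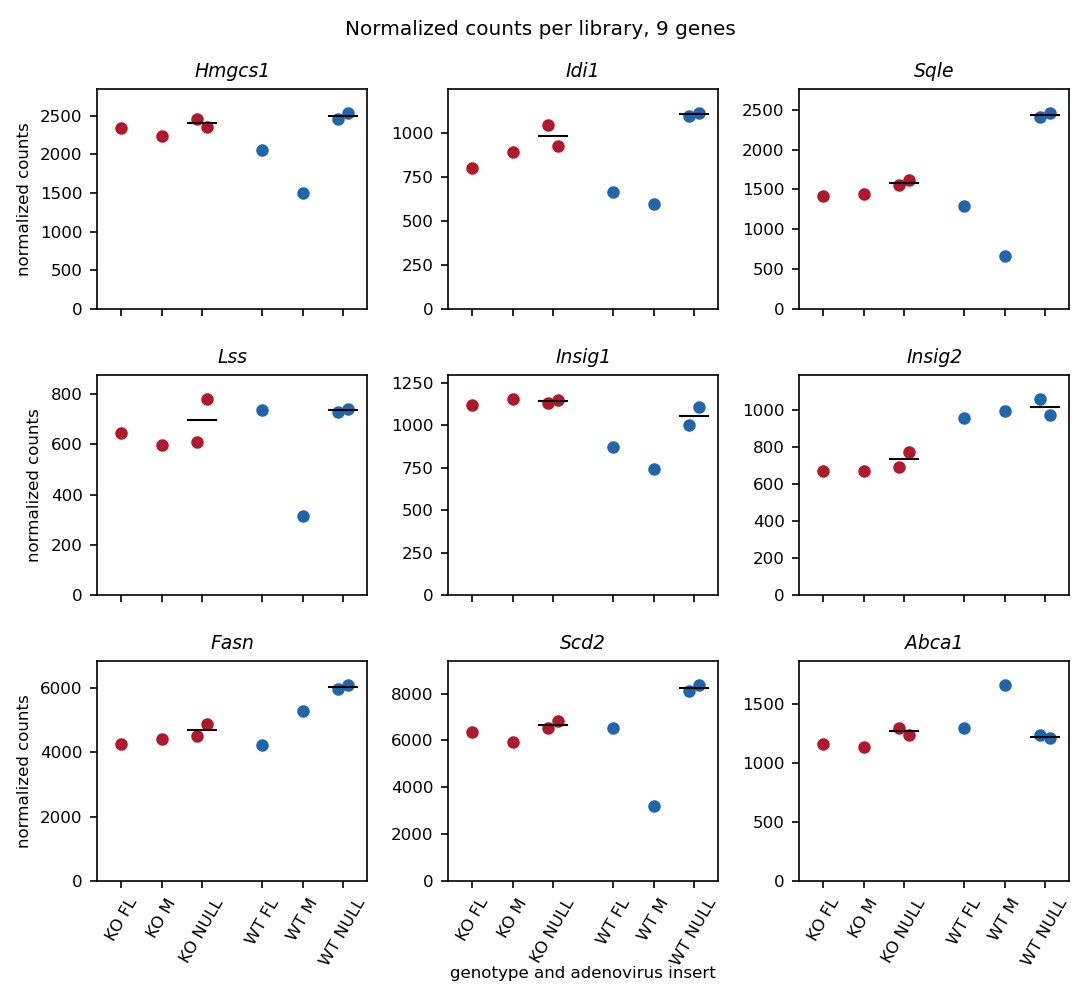
Normalized counts of 9 genes in each of the 8 libraries (points), by genotype and adenovirus insert, with a line at the mean of each NULL pair and each axis starting at 0. Sqle, Lss and Scd2 are lowest in WT M at 667, 316 and 3223, Insig2 is lower in all 4 KO libraries, and Abca1 is highest in WT M at 1663.

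Other genes of these pathways were read from lists by function. With M in WT, where 26.8% of all tested genes fell and 22.5% rose, 7 of 13 further SREBP pathway genes fell and 1 rose (53.8% and 7.69%). Mbtps1, a protease that cleaves SREBPs, had 2927 normalized counts in WT M, against 4794 and 4585 in WT NULL (log2 -0.68, SE 0.054, adjusted p = 8.85e-05). Erlin2, a membrane protein of the endoplasmic reticulum, had 1663 in WT M, against 2281 and 2396 in WT NULL (log2 -0.49, SE 0.071, adjusted p = 0.00144). Both WT M values lay below both WT NULL libraries.

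Of 10 genes that use isoprenoids, 2 fell and 1 rose with M in WT, 20% and 10%, below the 26.8% and 22.5% of all tested genes. Pdss1, a subunit of the enzyme that makes the ubiquinone side chain, rose (log2 0.99), and the farnesyltransferase subunits Fnta and Fntb fell (log2 -0.28 and -0.30). Of 24 tested genes among 27 further fatty acid and glycerolipid genes, 9 fell (37.5%) and 5 rose (20.8%). Acsl4, an acyl-CoA synthetase for arachidonic acid, had 3419 normalized counts in WT M, against 1477 and 1529 in WT NULL (log2 1.19, SE 0.061, adjusted p = 1.19e-05), and Me1, the malic enzyme that supplies NADPH, fell (log2 -0.78), as did Fads3, a member of the fatty acid desaturase family (log2 -0.55), and Tecr, a reductase of fatty acid elongation (log2 -0.49).

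Of 14 tested LXR and lipoprotein genes, out of 17 listed, 5 rose (35.7%) and 6 fell (42.9%) with M in WT, where 22.5% and 26.8% of all tested genes did. Arl4c, a known LXR target, had 1854 normalized counts in WT M, against 524 and 550 in WT NULL (log2 1.79, SE 0.091, adjusted p = 1.17e-05). Apoe, a lipoprotein component that accepts exported cholesterol, had 11610 in WT M, against 6420 and 6525 in WT NULL (log2 0.84, SE 0.046, adjusted p = 1.59e-05). Pltp, the phospholipid transfer protein, and Rxra, the partner receptor of LXR, fell (log2 -0.76 and -0.71). Mylip, also a known LXR target, went the other way from Arl4c, at 188 in WT M against 357 and 327 in WT NULL. Nr1h3, which encodes an LXR, was lower too, at 90.1 against 147 in both. The genes of this list thus moved in both directions. Macrophages express Apoe as well, and the macrophage marker sum given above was higher in the same library; its part in the Apoe value was not tested.

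Of 10 oxysterol and sterol ester genes, 4 rose (40%) and 2 fell (20%) with M in WT, where 22.5% and 26.8% of all tested genes did. Ch25h, which makes an oxysterol that blocks SREBP processing, had 752 normalized counts in WT M, against 219 and 204 in WT NULL, a 3.54-fold higher level (log2 1.82, SE 0.097, adjusted p = 1.43e-05). Ch25h also rose with FL, at 293 (log2 0.47, adjusted p = 0.0357). Cyp7b1, which breaks oxysterols down, had 269.8 in WT M, against 20.9 and 32.3 in WT NULL (log2 3.33, SE 0.32, adjusted p = 0.000218). Soat1, which esterifies cholesterol for storage, rose (log2 0.43), and Osbp, an oxysterol-binding transport protein, fell (log2 -0.48).

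In these lists, of 13, 10, 24, 14 and 10 tested genes, 3 genes differed between KO and WT with the NULL virus. That is a share near the 4.28% of all tested genes that did. Ch25h had 930 and 891 normalized counts in KO NULL, against 219 and 204 in WT NULL, a 4.29-fold higher level (log2 2.10, SE 0.38, adjusted p = 0.0326). Mylip, a ubiquitin ligase and known LXR target, had 162 and 177 in KO NULL, against 357 and 327 in WT NULL (log2 -1.01, SE 0.15, adjusted p = 0.0163). Lpin1, a phosphatidate phosphatase, had 385 and 351 in KO NULL, against 543 and 619 in WT NULL (log2 -0.66, SE 0.12, adjusted p = 0.0344). No gene of the isoprenoid list or of the further SREBP pathway list passed, Erlin1 coming closest (log2 0.51, adjusted p = 0.0974). With M in KO cells none of the genes of these lists passed, Ch25h being at 961 in KO M.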

How the data were processed

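The authors deposited normalized counts per gene (a signal, not whole counts), made with Salmon and DESeq2 on GRCm38.p6 per the submitters' processing notes, whose versions are not given in the sources used here. Both deposited tables are the same to within rounding (2 of 434648 values were not identical, the largest relative difference being 6.5e-15). The columns carry fibroblast sample titles, so the cell type rests on those titles alone, and the 8 libraries labelled as unseparated lung cells were not analysed here. Normalization by size factors hides the true depth, so no counting intervals are given.

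Values were taken to log2 after adding 1, so fold changes of low genes are understated. Genes with a mean of at least 10 were tested two-sided with limma-trend, version 3.58.1 in R 4.3.3, and p-values were adjusted by Benjamini-Hochberg over all 15527 genes of a comparison. A fit of 4 groups (each genotype with NULL or with IL-33; degrees of freedom 4 residual and 2.82 prior) gave the IL-33 and genotype comparisons. A fit of 6 groups (2 residual and 4.78 prior) gave each lone IL-33 library against the NULL pair of its genotype. Both fits were tested on simulated data, in which every library was drawn with the spread of the NULL pairs. That setting could not test whether a lone IL-33 library varies like them. All 31 genes could be named, and from each other list up to 4 genes with the smallest adjusted p. A few genes of these lists are not reported here. The genes, lists and tests were chosen with earlier results of these data known. As alternatives, 0.5 or 8 was added in place of 1, the filter was dropped or raised to a mean of 50, TMM or quantile scaling was applied, 6 groups replaced 4, the NULL number entered as a replicate block, and single libraries were left out in turn. Promoter windows came from RefSeq and gene positions from GENCODE, both on GRCm38. Tables and figures used Python 3.11.15, numpy 2.4.6, pandas 2.3.3 and matplotlib 3.10.9.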

Additional observations from a re-analysis of the deposited data

Results flagged for a closer look

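The change with M differed between the genotypes by a test of the difference itself (KO minus WT, log2, limma on 6 groups) for 18 of the 31 genes, all of which are given in the report as a count. Among the early enzymes the difference was 0.63 for Hmgcs1, 1.05 for Mvk, 0.85 for Pmvk, 0.64 for Mvd, 0.74 for Idi1, 0.69 for Fdps and 0.82 for Fdft1. From squalene on it was 1.72 for Sqle, 1.01 for Lss, 0.55 for Cyp51, 0.58 for Nsdhl and 0.83 for Hsd17b7. It was 0.52 for Insig1, 0.53 for Srebf1, 0.46 for Srebf2, 0.54 for Scd1 and 1.19 for Scd2, and -0.61 for Abca1. The change with FL differed for Sqle, by 0.75. Il33 levels differed between KO and WT as well, so genotype and insert level cannot be told apart here.

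In Mvk and Abca1 both IL-33 libraries moved one way in KO and the other way in WT. These genes were picked by that pattern, and its share among all tested genes was not counted. Within WT, such separation held for 27.9% (lower) and 24% (higher) of all tested genes, and within KO for 22% and 20.6%. Mvk had 626 and 630 normalized counts in KO FL and KO M, against 568 and 614 in KO NULL, and 476 and 348 in WT FL and WT M, against 679 and 671 in WT NULL. The pooled difference was 0.82 (SE 0.22) and did not pass (adjusted p = 0.470). For Abca1 the pooled difference was -0.41 and did not pass either (adjusted p = 0.553).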

How the results depend on the processing

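No result of M against NULL in WT changed its count by over 1.5 times under any alternative, with 16 to 24 of the 31 genes passing, and 21 to 24 leaving out each library in turn. FL against NULL in WT gave 2 with no filter on low values and 5 with the replicate block, and 3 to 10 leaving out each library. M against FL in WT gave 8 with no filter, and 15 to 18 leaving out each library. IL-33 in WT, 0 as reported, gave 22 with 6 groups and 0 to 24 leaving out each library (24 without WT FL, 9 without WT M). IL-33 in KO and each isoform in KO stayed at 0 under all alternatives run. The IL-33 effect in KO minus WT gave 14 with 6 groups and 0 to 20 leaving out each library (20 without WT FL, 4 without WT M). Its added forms gave 10 with no filter and 14 to 19 leaving out each library for M, and 3 with no filter, 0 with the replicate block and 0 to 2 leaving out each library for FL. KO against WT over both inserts gave 13 with 6 groups, 2 with no filter, 1 with the replicate block and 1 to 16 leaving out each library. With the NULL virus it gave 11 with 6 groups, 0 with no filter, TMM factors, quantile normalization or the replicate block, and 0 to 10 leaving out each library. With IL-33 it gave 18 with 6 groups, 1 with no filter, 0 with the replicate block and 0 to 22 leaving out each library. The numbers of the NULL libraries are numbers only: the NULL 1 minus NULL 2 difference correlated at 0.023 between KO and WT.

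For single genes, 103 results were followed. They were those that passed as reported, and a fixed set of genes in IL-33 in WT, M against NULL in WT and KO against WT with the NULL virus. Of their 1476 values under the alternatives, 1283 kept their direction and side of the threshold, 147 lost it, 41 gained it and 5 reversed. Most results that did not pass were left out, so gains are undercounted. Leaving out WT NULL replicates, Insig2 in WT ran from -0.12 to 0.0050 for IL-33 and from -0.094 to 0.033 for M against NULL, turning without WT NULL replicate 1, and to 0.030 for M with quantile normalization. Srebf1 for IL-33 in WT ran from -0.63 without WT FL to 0.16 without WT M, and Fasn for M against NULL in WT to 0.033 with quantile normalization. The cause of these changes was not tested, except that 6 groups leaves the gap between FL and M out of the spread.

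Each IL-33 virus had 1 library per genotype, separate cultures are not stated, insert levels were not matched, marker sums moved in WT M, and true depth is unknown.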
